A study of Mus musculus with 4 samples.

Results

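The discoidin domain receptor genes Ddr1 and Ddr2, the platelet-derived growth factor (PDGF) receptor genes Pdgfra and Pdgfrb, and 6 further receptor tyrosine kinase genes (Igf1r, Insr, Met, Axl, Mertk and Tyro3) were followed in double positive thymocytes. These 10 genes were chosen by name, and every array probe set whose only annotated gene symbol was one of them was taken, which gave 30 of 34945 such probe sets. The names were selected from results of the same comparison, in which Ddr1 and Pdgfrb had stood out, so the differences between the groups are given as a description, and a gene or probe set said to pass the test is no independent evidence. Cells came from 2 Ikf/f CD4-Cre- mice (Cre-negative) and 2 Ikf/f CD4-Cre+ mice (Cre-positive), 1 Affymetrix array per mouse. All 4 mice carry the floxed Ikaros (Ikzf1) allele, and in the Cre-positive mice Cre recombinase driven by CD4 regulatory sequence is meant to delete Ikaros, a zinc finger transcription factor of lymphocytes. No Cre-positive mouse lacked the floxed allele, so Cre and Ikaros loss cannot be told apart. The labels give neither the age of the mice nor the way the cells were isolated.

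Receptor tyrosine kinases are membrane proteins that bind a ligand outside the cell and phosphorylate tyrosines inside it, which recruits adaptors and starts the Ras and PI3-kinase pathways. Ddr1 and Ddr2 bind collagen, the PDGF receptors serve mesenchymal cells and pericytes, Igf1r and Insr bind insulin-like growth factors and insulin, and Met binds hepatocyte growth factor. Axl, Mertk and Tyro3, the TAM receptors, bind Gas6 on dying cells, and Mertk and Tyro3 also bind protein S. These receptors are best known from macrophages, which clear the many thymocytes that fail selection.

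The authors deposited RMA log2 signals (RMA, robust multi-array averaging, gives all arrays a shared distribution of values); the base of the logarithm is taken from what RMA returns. Array medians over all probe sets lay between 5.19 and 5.25. Pairs of values below are in the order of samples 1 and 2 of a group, and differences are Cre-positive minus Cre-negative. Signals of different probe sets cannot be set against each other, since probes differ in how well they bind. A gene was represented by its brightest probe set and kept for the test if its mean reached 4.76, the 40th percentile of named probe sets. Ikzf1, the targeted gene, gave 12.40 and 12.08 without Cre and 10.80 and 10.62 with it, a difference of −1.53 with the groups apart. That is its brightest probe set, and its other one differed by −0.22. The thymocyte genes Cd4, Cd8a and Rag1 had signals of at least 10.37, 12.71 and 13.25 on all arrays; how the list of double positive thymocyte genes moved is given with the other cell type markers. The X-inactivation transcript Xist read 12.75 in Cre-negative sample 2 and at most 5.37 on the others, the pattern of a female mouse. By this pattern sex is not balanced between the groups, and its part in the differences was not tested.

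Of the 10 receptor genes, 7 were kept, and 2 of these, Ddr1 and Pdgfrb, were higher in Cre-positive mice with an adjusted p under 0.05 in limma, where 1.11% of all 11639 kept genes were; 0 were lower, against 0.266% of all. In 4 of the 7 both Cre-positive arrays were higher and in 0 both lower, against 34.2% and 18.7% of all kept genes. Pdgfra, Met and Mertk were below the signal filter. Among the probe sets, 5 of 30 passed as higher in a fit of all 34945, against 0.481% there, and 0 as lower, against 0.206%. Both Cre-positive arrays lay above both Cre-negative arrays in 15 of the 30 and below them in 4, against 26.6% and 19.4% of all probe sets, and the arrays overlapped in 11. Of those 15, 6 were Ddr1 probe sets, which share a transcript and are not separate observations. Ddr1 and Pdgfrb carried the larger differences, Igf1r and Axl had smaller positive ones, and the brightest probe sets of the other 6 genes differed by at most 0.18 in size.

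**Figure D1:**
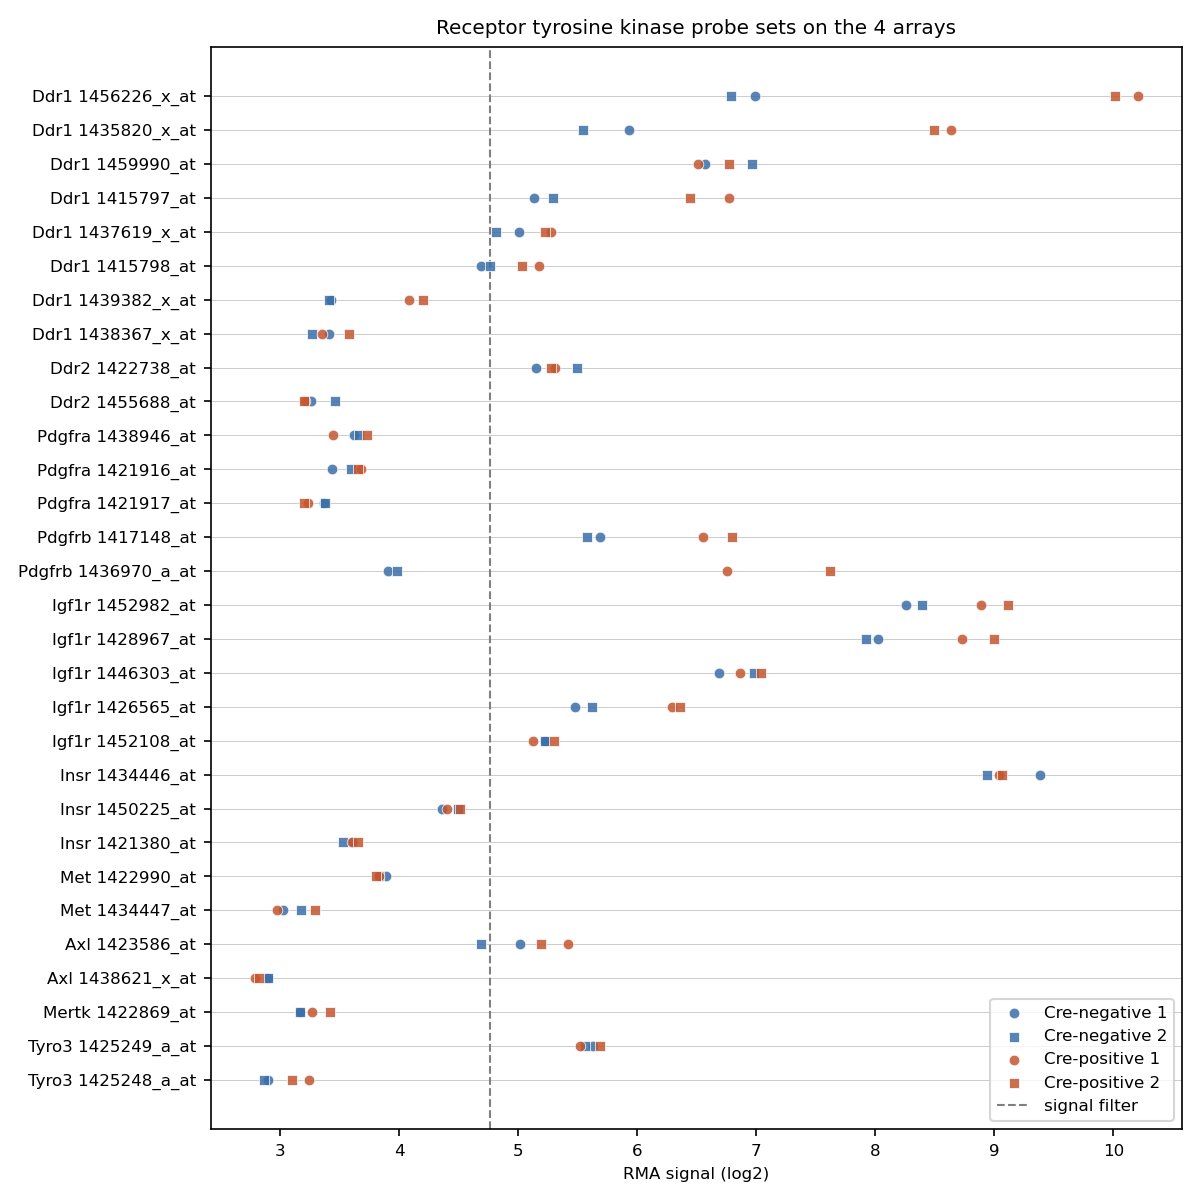
RMA log2 signal (horizontal axis) of all 30 probe sets of the 10 receptor genes, with 1 point per array, blue for Cre-negative and orange for Cre-positive mice, circles for sample 1 and squares for sample 2; the dashed line is the signal filter of 4.76. The orange points stand far to the right of the blue ones in the brightest Ddr1 probe sets and in both Pdgfrb probe sets, and 13 probe sets lie at the left of the filter.

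Ddr1 encodes a collagen receptor known mainly from epithelial cells. Its brightest probe set, 1456226_x_at, read 6.99 and 6.79 without Cre against 10.21 and 10.02 with Cre. The groups were far apart and the mice of a group close together, at 6.89 ± 0.14 and 10.11 ± 0.13 on average (SD, n = 2 mice each). Cre-positive minus Cre-negative was 3.22 ± 0.13 (SE), a 9.33-fold higher signal, and 12 of the 11639 kept genes had a larger positive difference. A further probe set of Ddr1, 1435820_x_at, read 5.93 and 5.54 against 8.64 and 8.50, a difference of 2.83 ± 0.16 (SE). In these probe set names the ending _x_at marks probes that can also bind other transcripts, whereas a plain _at marks probes designed for a single transcript. A plain probe set, 1415797_at, read 5.13 and 5.29 against 6.77 and 6.44. Its groups did not overlap either, and its difference was 1.39 ± 0.15 (SE), 2.62-fold. All of the probe sets so far passed in the fit of all probe sets.

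The other 5 Ddr1 probe sets gave smaller differences. The plain probe set 1415798_at read 4.69 and 4.76 against 5.17 and 5.03, and 1437619_x_at read 5.0 and 4.81 against 5.28 and 5.23. Both were higher in the 2 Cre-positive mice, by 0.37 and 0.34, and neither passed. Below the filter, 1439382_x_at read 3.43 and 3.40 against 4.08 and 4.20, and 1438367_x_at read 3.41 and 3.26 against 3.35 and 3.58. The former was 0.73 higher without overlap, whereas the latter overlapped between the groups. The plain probe set 1459990_at pointed the other way: it read 6.57 and 6.96 against 6.51 and 6.77, a difference of −0.12 with overlapping arrays. In all, 6 of the 8 Ddr1 probe sets were higher without overlap and 3 passed, and their differences spanned 3.35 log2 units. Restricted to plain probe sets, the brightest is 1459990_at, so that choice gives Ddr1 a difference of −0.12, and the mean of all 8 gives 1.11.

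Ddr2, the collagen receptor of mesenchymal cells, did not share the difference. The brighter Ddr2 probe set gave 5.15 and 5.49 without Cre and 5.30 and 5.27 with Cre, so the Cre-positive values lay inside the Cre-negative range. The dimmer probe set read 3.26 and 3.45 against 3.21 and 3.20, below the filter on every array. The 2 Ddr2 differences were −0.03 ± 0.15 and −0.15 ± 0.12 (SE).

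RefSeq lists 4 separate start sites for Ddr1, and the promoter windows (build GRCm38.p6) from 250 bases before to 50 bases after a start were read for the letters GGGAA on either strand (TTCCC on the opposite one), the core of the sequence that Ikaros binds. The 2 Ddr1 windows with a match, the Ddr2 window and the Igf1r window are printed because these genes contrast in their differences; capitals mark the matches.
Ddr1, chr17:35704550-35704849, minus strand: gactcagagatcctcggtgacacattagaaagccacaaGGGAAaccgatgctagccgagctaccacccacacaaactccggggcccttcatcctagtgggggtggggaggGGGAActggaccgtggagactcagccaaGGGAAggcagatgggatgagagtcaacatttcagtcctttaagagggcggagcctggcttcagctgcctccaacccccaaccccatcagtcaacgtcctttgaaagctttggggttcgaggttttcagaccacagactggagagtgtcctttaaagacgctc
Ddr1, chr17:35701995-35702294, minus strand: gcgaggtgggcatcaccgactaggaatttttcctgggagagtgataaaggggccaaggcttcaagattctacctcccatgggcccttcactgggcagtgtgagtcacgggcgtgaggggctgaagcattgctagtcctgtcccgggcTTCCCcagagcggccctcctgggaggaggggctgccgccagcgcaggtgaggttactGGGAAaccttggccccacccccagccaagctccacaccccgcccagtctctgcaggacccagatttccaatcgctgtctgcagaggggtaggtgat
Ddr2, chr1:170088895-170089194, minus strand: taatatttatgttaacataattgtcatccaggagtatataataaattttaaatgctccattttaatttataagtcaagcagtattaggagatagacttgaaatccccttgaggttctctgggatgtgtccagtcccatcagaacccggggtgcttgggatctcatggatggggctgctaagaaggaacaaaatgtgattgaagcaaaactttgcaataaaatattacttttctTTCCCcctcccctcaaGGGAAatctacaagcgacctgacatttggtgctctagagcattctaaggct
Igf1r, chr7:67952007-67952306, plus strand: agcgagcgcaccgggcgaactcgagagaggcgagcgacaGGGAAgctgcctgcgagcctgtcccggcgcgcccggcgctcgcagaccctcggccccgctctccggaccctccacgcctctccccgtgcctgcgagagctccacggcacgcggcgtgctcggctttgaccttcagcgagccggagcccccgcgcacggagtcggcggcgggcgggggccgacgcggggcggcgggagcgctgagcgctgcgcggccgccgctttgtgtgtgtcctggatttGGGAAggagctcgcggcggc
The Ddr1 window at the largest coordinate held 3 matches, whose first bases lay at -212, -140 and -112 from the start, and the other printed Ddr1 window held 2, at -103 and -46. Ddr2 also held 2, at -17 and -1, and Igf1r 2, at -211 and 31. The motif is short and frequent: 62.7% of the 32851 windows in the table held at least 1 match and 8.83% at least 3. Of the 8 receptor genes in the table, with 11 windows, 9 windows held a match, those of Met, Mertk and Pdgfra included. All 8 genes had a match in at least 1 window. The presence of the motif therefore could not separate receptors with a difference from those without, and no conclusion is drawn from it. Pdgfrb and Insr had no entry. Which Ddr1 start is used in these cells was not measured.

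Pdgfrb, the receptor for PDGF-B and a marker of pericytes and fibroblasts, was higher in both of its probe sets. The brighter over the 4 arrays, 1417148_at, gave 5.68 and 5.58 without Cre and 6.56 and 6.80 with Cre. These groups did not overlap, at 5.63 ± 0.07 and 6.68 ± 0.17 on average (SD, n = 2 mice each), which is a difference of 1.05 ± 0.13 (SE), 2.06-fold. The other, 1436970_a_at, whose ending marks probes shared by transcript variants of a gene, read 3.90 and 3.98 against 6.75 and 7.62. Here the signal went from below the filter to well above it, with Cre-positive sample 2 higher than sample 1, and the difference was 3.24 ± 0.28 (SE). Both passed in the fit of all probe sets, and the mean of both gives 2.14. The 2 probe sets thus gave the same direction and sizes that differ by 2.20 log2 units. Without any single array the gene no longer passed, though its difference stayed between 0.92 and 1.17.

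Pdgfra, the receptor for PDGF-A that marks mesenchymal progenitors, had no probe set at the filter. Its 3 probe sets read between 3.20 and 3.73 over all arrays, with differences of −0.15 to 0.15. One was higher, one lower and one overlapping between the groups, all near the bottom of the scale.

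Igf1r, the receptor for insulin-like growth factor 1, was higher in 3 of 5 probe sets, by less than Ddr1 and Pdgfrb. The brightest, 1452982_at, read 8.26 and 8.39 without Cre against 8.88 and 9.12 with Cre, a difference of 0.68 ± 0.13 (SE), 1.60-fold. Probe set 1428967_at, annotated to the same source sequence, read 8.02 and 7.92 against 8.73 and 9.0, a difference of 0.89 ± 0.14 (SE). Probe set 1426565_at read 5.48 and 5.62 against 6.29 and 6.36, a difference of 0.77 ± 0.12 (SE). In each of the 3 the groups were apart, but none passed. The last shares its source sequence with 1452108_at, which read 5.23 and 5.23 against 5.12 and 5.30 and so differed by −0.02 with overlapping arrays. The fifth, 1446303_at, differed by 0.11 and overlapped too.

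Insr, the insulin receptor and the closest relative of Igf1r in this set, showed no such difference. Its brightest probe set read 9.38 and 8.94 without Cre against 9.04 and 9.07 with Cre, a difference of −0.11 ± 0.17 (SE). The Cre-positive mice fell between the 2 Cre-negative mice. The remaining Insr probe sets lay below the filter, with differences of 0.03 and 0.06 and overlapping arrays.

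Met, the hepatocyte growth factor receptor of epithelial cells, read between 2.97 and 3.89 in its 2 probe sets over all arrays. Both were below the filter, and their differences were −0.05 and 0.03.

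Among the TAM receptors, Axl had the largest difference. The brighter of its probe sets gave 5.01 and 4.68 without Cre and 5.42 and 5.19 with Cre. The groups did not overlap, but the gap between them was smaller than the spread within either, and the difference of 0.46 ± 0.16 (SE) did not pass. The other Axl probe set lay between 2.78 and 2.90, with the Cre-positive arrays lower by 0.10. Mertk, the receptor by which macrophages take up dying cells, has 1 probe set, which read 3.17 and 3.16 against 3.27 and 3.42, below the filter. Tyro3 read 5.63 and 5.56 against 5.52 and 5.69 in its brighter probe set, a difference of 0.01 ± 0.12 (SE). Its other probe set, near the bottom of the scale, was 0.29 higher without overlap, at 2.90 and 2.86 against 3.24 and 3.10.

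**Figure D2:**
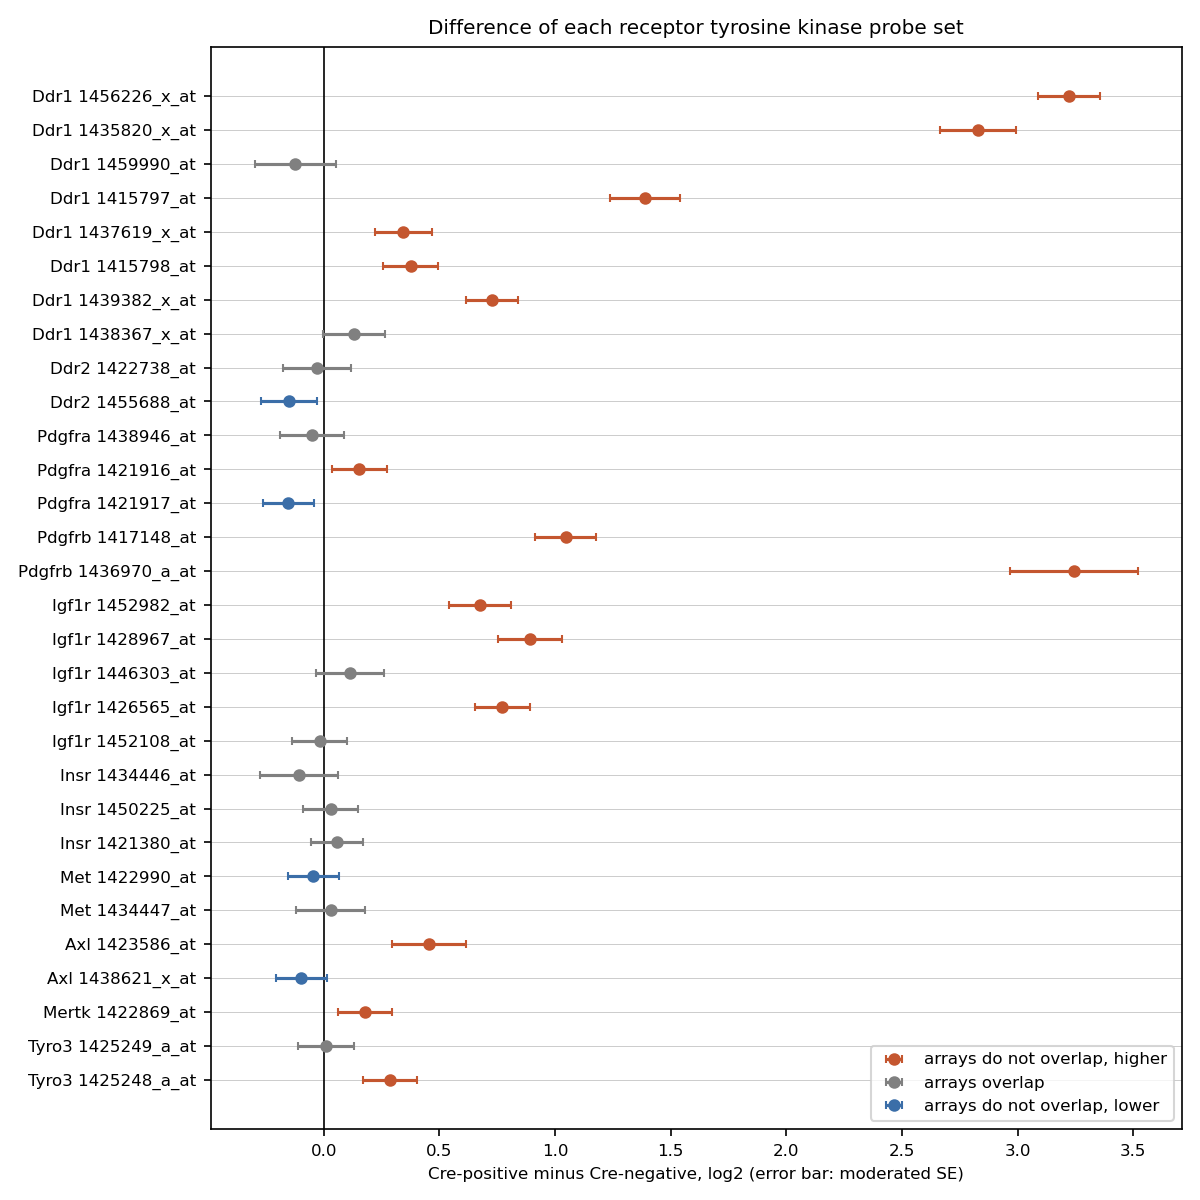
Difference between Cre-positive and Cre-negative means on the log2 scale (horizontal axis) for each of the 30 probe sets, with the moderated SE as error bar; orange marks probe sets whose Cre-positive arrays are both higher, blue both lower, grey overlapping arrays. Differences above 1 are those of Ddr1 (3 probe sets) and Pdgfrb (2 probe sets), while probe sets of Ddr1 and Igf1r with differences near 0 lie beside ones that moved.

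The other genes of receptor tyrosine kinase signalling were taken by role. Calls in these lists are from the gene fit, in which 1.37% of all kept genes passed in either direction and the median difference was 0.06. Of 21 ligand genes of the 10 receptors, 20 were on the array under their own symbol and 6 were kept; by limma 0 passed, 3 were higher at an unadjusted p under 0.05 (20.6% of all kept genes had one, in either direction), and the list median was 0.31. Col1a2, a chain of the collagen that Ddr1 and Ddr2 bind, read 5.18 and 5.33 without Cre against 11.55 and 8.01 with Cre. The groups were far apart, but the 2 Cre-positive mice differed from each other by more than 3 log2 units, and the difference of 4.52 ± 1.07 (SE) had a limma adjusted p of 0.107. With a Cre-positive mouse left out, the Col1a2 difference was 6.29 without sample 2 and 2.75 without sample 1. Such a fit takes the spread of Col1a2 from the Cre-negative mice alone, so no call is read from it. Col1a1, whose product pairs with that of Col1a2 in type I collagen, read 3.88 and 3.96 against 3.95 and 3.84, and Col3a1 lay between 2.72 and 2.83 in its brighter probe set. Among ligands of the other receptors, Igf1 differed by 0.66 ± 0.21 (SE; limma adjusted p = 0.174) in its brightest probe set. The Cre-negative mean there, 4.55, lay below the filter, so Igf1 was kept through its Cre-positive arrays. Its other probe sets differed by 0.17, 0.25 and 0.08 with overlapping arrays. Col5a1 differed by 0.33 and Pros1, which encodes protein S, by 0.28, whereas the PDGF genes, Hgf and Gas6 were below the filter. Below it, Pdgfc differed by 0.44 in its brightest probe set and by 1.32 in its dimmer one. The brightest probe sets of Pdgfa, Pdgfd and Pdgfb differed by 0.20, 0.06 and −0.04.

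Of 21 genes that bind, activate or release the ligands and receptors, 11 were kept, 1 rose and 0 fell, with a list median of 0.08. The gene that rose was Mmp14, a membrane metalloproteinase that cuts collagen and cell surface proteins, already known from these data when the list was made. It read 6.23 and 6.44 against 9.51 and 9.25, a difference of 3.05 ± 0.15 (SE; limma adjusted p = 0.00364), and its other 2 probe sets differed by 1.32 and 0.44. Without either Cre-negative mouse Mmp14 did not pass (adjusted p = 0.0626 and 0.062). Furin, the protease that cleaves the Igf1r and Insr precursors, differed by 0.57 and Igf2r, which clears IGF2, by 0.43. Spint2, an inhibitor of the proteases that activate HGF, differed by −0.30. None of these 3 passed.

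Among the receptor tyrosine kinases outside the 10, 46 of 48 listed were on the array, 26 were kept, 1 rose and 0 fell, with a median of 0.02. Erbb3, the neuregulin receptor whose own kinase is weak, read 7.01 and 6.81 without Cre against 8.50 and 8.33 with Cre. Both groups were tight, and the difference of 1.50 ± 0.13 (SE) had a limma adjusted p of 0.0181. Its other probe set, below the filter, differed by 0.07. Erbb3 no longer passed with either Cre-negative mouse or Cre-positive sample 1 left out. Ntrk3, a neurotrophin receptor, differed by 0.45, Aatk by 0.27 and Ryk, a Wnt receptor, by 0.19, and none of them passed. Over all their probe sets Ntrk3 ranged from −0.05 to 0.45 and Ryk from −0.01 to 0.19. Csf1r, the receptor of macrophages for colony stimulating factor, differed by 0.19 in its brightest probe set with overlapping arrays, but probe set 1419872_at read 5.36 and 5.18 against 6.63 and 6.33, a difference of 1.21 ± 0.15 (SE); it was named after its values were seen.

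Downstream of the receptors, 32 of 39 adaptor and signalling genes were on the array and kept, 1 rose and 0 fell, with a median of 0.06. Irs1, the adaptor that Igf1r and Insr phosphorylate, read 3.68 and 3.54 without Cre against 6.34 and 5.67 with Cre. It went from below the filter to above it, so Irs1 was kept only through its Cre-positive arrays. Its only probe set differed by 2.39 ± 0.23 (SE, limma adjusted p = 0.0205). The call was lost without either Cre-negative mouse, where the difference was 2.46 and 2.32. Braf, a kinase of the Ras pathway, differed by −0.54, Stat5a by 0.43 and Map2k1 by 0.42, without passing. Probe sets of some uncalled genes disagreed. Gab1 differed by 0.79 in its brightest, with a range of −0.13 to 1.40. Nck2 differed by 0.36, with a range of −0.16 to 2.64, and Pik3r1 ranged from −0.81 to 0.03. The Braf probe sets ranged from −0.76 to 0.29 and those of Stat5a from 0.16 to 0.43.

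Of 23 inhibitors and feedback genes, 18 were kept, 1 rose and 0 fell, with a median of −0.08. Spry2, a Sprouty protein that damps signalling from receptors to Ras, read 4.28 and 4.69 without Cre against 6.30 and 6.42 with Cre. Both Cre-negative values lie below the filter, so Spry2 was kept only through its Cre-positive arrays. The difference was 1.88 ± 0.17 (SE, limma adjusted p = 0.0181), but its dimmer probe set differed by −0.13 with overlapping arrays. With the mean of both probe sets, or with any array left out, Spry2 did not pass. The phosphatase gene Ptpn2 differed by 0.47, Nf1, a brake on Ras, by 0.48 and Socs3 by 0.51, and none of them passed. These are the largest differences among the probe sets of each gene, and the smallest were 0.05, 0.06 and 0.14.

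**Figure D3:**
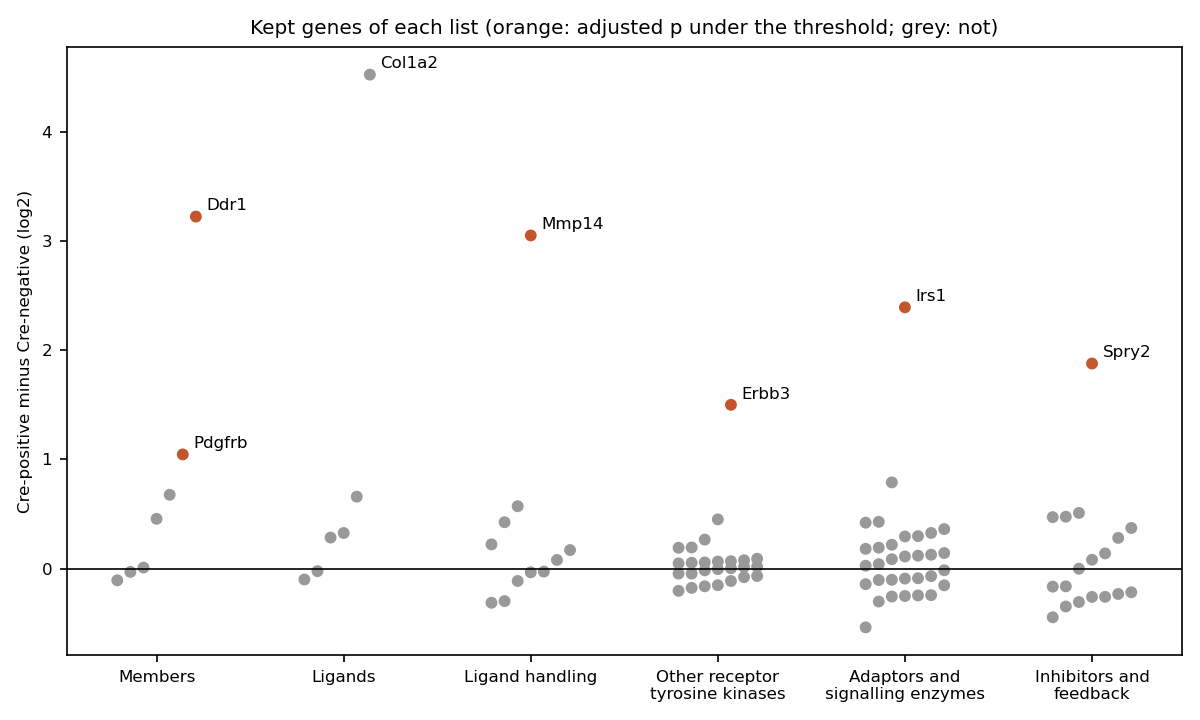
Difference between Cre-positive and Cre-negative mice on the log2 scale (vertical axis) for the kept genes of the 10 receptors and of 5 lists, 1 point per gene, orange where the limma adjusted p was under 0.05 and grey where it was not. Most points lie within 0.6 of 0, with Ddr1, Pdgfrb, Mmp14, Erbb3, Irs1 and Spry2 as the orange points and Col1a2 as a grey point at 4.52.

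Several of the receptors mark cells other than thymocytes, so markers of those cells were read on the same arrays; in bulk RNA a larger share of a cell type and more RNA per cell cannot be told apart. Counts of arrays without overlap run over all genes of a list, kept or not, and of all 18193 genes 28.5% were higher and 17.6% lower in this sense. Of 15 fibroblast markers other than the receptors, 1 (Col1a2) was higher and 3 lower without overlap, and of the 7 kept 0 passed by limma, with 1 below an unadjusted p of 0.05. Their summed linear signal, most of it from Thy1, a gene that thymocytes also express, was 8361 and 8100 without Cre and 11585 and 8455 with Cre. The defining genes Col1a1 and Col3a1 were below the filter on all arrays. Dcn was slightly lower in Cre-positive mice in its brighter probe set, at 4.93 and 4.86 against 5.04 and 5.16, and its other one differed by 0.14. Col1a2 was highest in Cre-positive sample 1, whereas both Pdgfrb probe sets were highest in sample 2. Fbln1, with −0.14 in its brightest probe set, had others at 1.44 and 1.10, of which the latter passed in the fit of all probe sets (limma adjusted p = 0.0314). Of 11 pericyte and smooth muscle markers, 5 were higher and 0 lower without overlap, and of the 6 kept 0 passed by limma (0 below an unadjusted p of 0.05), with Notch3 at 0.37 and Cspg4 at 0.25, and Acta2 overlapped between the groups. Their summed signal was 570.1 and 536.1 against 660.3 and 610.7.

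The epithelial list, which bears on Ddr1 and Met, held 13 genes on the array, of which 4 were higher and 1 lower without overlap; 8 were kept and 1 rose. That gene was Cldn4, a tight junction protein, at 6.75 and 6.93 against 7.90 and 7.78, a difference of 1.00 ± 0.13 (SE; limma adjusted p = 0.0386). Krt8 differed by 0.43, and Epcam overlapped between the groups. The summed epithelial signal was 570.8 and 610.1 against 723.4 and 757.6. Cldn4, the brightest gene of this list, weighs most in that sum. The mean log2 signal of the list was 5.14 and 5.20 against 5.25 and 5.37. Of 12 endothelial genes, 3 were higher and 0 lower without overlap, and of the 5 kept 0 passed by limma (1 below an unadjusted p of 0.05). Eng differed by 0.98 and Kdr by −0.15, and Pecam1 overlapped. The summed endothelial signal was 372.1 and 399.2 against 492.7 and 478.8, in which Eng, the brightest gene of the list, weighs most. The mean log2 signal of the list was 4.43 and 4.49 against 4.54 and 4.61.

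Macrophage and dendritic markers bear on Axl and Mertk. Of 17 macrophage genes, 8 were higher and 1 lower without overlap; 11 were kept, and 1 of them, Lyz2, a lysozyme, rose by 1.85 ± 0.17 (SE; limma adjusted p = 0.0181). C1qa differed by 1.11, while Adgre1, a defining surface gene of macrophages, overlapped between the groups at −0.03. The summed macrophage signal was 482.2 and 492.0 without Cre and 734.7 and 740.7 with Cre. Lyz2, at 7.14 and 7.55 the brightest gene of this list with Cre, weighs most in the Cre-positive sums. The mean log2 signal of the list was 4.66 and 4.69 against 5.10 and 5.06. Of 13 dendritic genes, 7 were higher and 2, Ccl22 at −0.25 and Zbtb46 at −0.14, lower without overlap; 12 were kept and 2 rose. H2-Ab1 rose by 1.58 and Irf8 by 1.08, with limma adjusted p-values of 0.0453 and 0.0495. H2-Aa differed by 2.25, Itgax by 0.27 and Flt3 by −0.16. Xcr1, Siglech and Ccr7 differed by −0.01, 0.01 and 0.04 with overlapping arrays. The summed dendritic signal was 666.5 and 527.9 against 1274 and 1331. H2-Aa, H2-Ab1 and H2-Eb1, on average the brightest genes of this list, weigh most in that sum. The mean log2 signal of the list was 5.44 and 5.24 against 5.87 and 5.95. Of 7 B cell genes, 4 were higher and 0 lower without overlap, and of the 5 kept 0 passed by limma (1 below an unadjusted p of 0.05), with Ms4a1 at 0.71, Pax5 at 0.18 and overlapping sums of 504.7 and 537.8 against 480.4 and 579.6. Of 14 genes of double positive thymocytes, all kept, 2 were higher and 9 lower without overlap, and 0 passed by limma (5 below an unadjusted p of 0.05, 2 of them higher). Cd4 differed by −0.14, Cd8a by −0.30, Rag1 by −0.11, Rag2 by −0.41, Cd1d1 by −0.66 and Ptcra, the pre-T cell receptor chain, by 1.16. Their summed signal was 82312 and 81102 without Cre and 73396 and 74964 with Cre. Cldn4, H2-Ab1 and Irf8 did not pass with any array left out, nor Lyz2 without either Cre-negative mouse. The part of these cell types, or of thymocyte makeup, in the receptor signals was not tested.

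**Figure D4:**
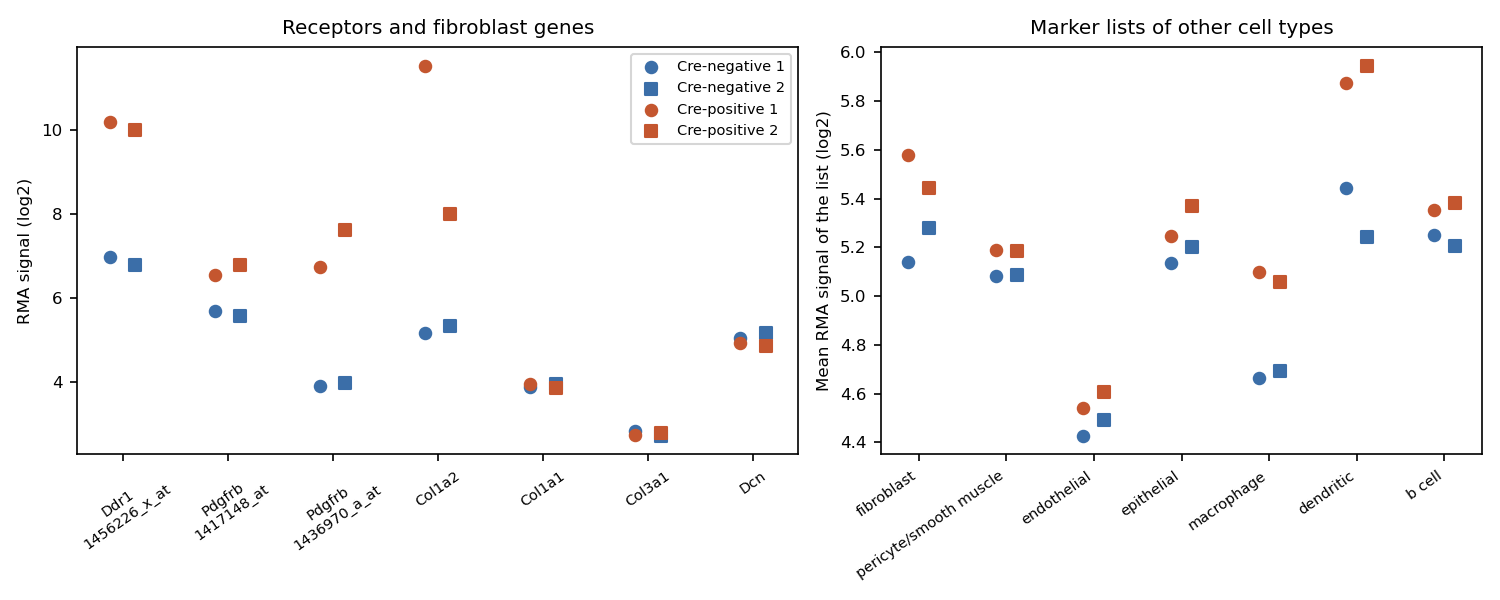
Left, RMA log2 signal of Ddr1, both Pdgfrb probe sets and 4 fibroblast genes (brightest probe set) on each array; right, mean RMA log2 signal of each marker list of another cell type; blue for Cre-negative and orange for Cre-positive mice, circles for sample 1 and squares for sample 2. Ddr1, Pdgfrb and Col1a2 are higher in both orange points while Col1a1 and Col3a1 stay at the bottom, and the macrophage and dendritic lists show the widest gaps at the right.

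The kept genes whose profiles over the 4 arrays were nearest to Ddr1, by the root mean square distance of values centred on each gene's mean, were Mmp14 (0.17 log2 units), Ctss (0.27), Rtp4 (0.31), Ifit1 (0.32) and Gm4371 (0.32). Mmp14 differed by 3.05 and the other 4 by 2.63 to 2.98, so these genes were higher by nearly as much in both Cre-positive mice. Ctss is a lysosomal protease and Rtp4 and Ifit1 are interferon-inducible. Nearest to Pdgfrb were Tns3 (0.02), a focal adhesion protein, Uxs1 (0.05), Irf9 (0.05), Slit3 (0.05) and Cacng4 (0.06), with differences of 0.99 to 1.12. The likeness is over 4 arrays and follows mainly the size of the difference; no test was made.

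With 2 mice a group, calls rest on the spread that limma shares across genes, and the smallest p that an exact permutation test could reach is 0.333. Ddr1 no longer passed without Cre-negative sample 2 (limma adjusted p = 0.062), although its difference there was 3.12.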

How the data were processed

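The authors deposited 1 log2 signal per probe set and array, made with RMA (version unstated) per the submitters' processing notes; only these values were used, and background correction and normalization stayed as deposited. RNA was amplified in a pair of cycles from input amounts that varied and are not tied to arrays, per the labels. Of 45037 probe sets, 34945 had 1 gene symbol in the platform annotation; 34741 of these matched a current RefSeq table by Entrez identifier and 0 symbols changed. A gene fit and a probe set fit were made with limma 3.58.1 in R 4.3.3 (lmFit, eBayes without trend, two-sided, Benjamini-Hochberg adjustment, threshold 0.05). The gene fit used the brightest probe set of each of 18193 genes and kept 11639 at or above the filter of 4.76. The probe set fit used all 34945 without a filter and gave the SE of each receptor probe set; the SE of other genes came from the gene fit, except for probe sets named beside a gene's brightest. Residual degrees of freedom were 2. On simulated data for this comparison with 11639 genes, the gene fit found 51 of 100 genes with a log2 change of 1 and 98 of 100 with one of 2, and 10 of its 159 calls were false.

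The receptors, gene lists and alternatives were chosen with earlier results of these data known. The genes named were Ikzf1, all receptors and their probe sets, called genes of each list with the smallest p-values up to 4, and for marker lists called genes, the 2 largest differences and defining markers. Cd4, Cd8a, Rag1, Rag2, Xist, Col3a1, Thy1, Ccl22, Zbtb46, Flt3, Xcr1, Siglech, Ccr7, Fbln1, Csf1r, Gab1, Nck2, Pik3r1 and the ligands listed as below the filter were added after their values were seen. Some listed genes were not analysed here. Samples were separate mice, and having 4 arrays limits the precision. Alternatives varied the filter, the probe set of a gene, array centring, the variance prior, array weights, a replicate block and left out each array. Figures were drawn with matplotlib 3.10.9.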

Additional observations from a re-analysis of the deposited data

How the results depend on the processing

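The number of genes called was 160 as reported, 90 with the filter at the 60th percentile, 104 with plain _at probe sets alone, 821 with the replicate block and 3 to 99 with an array left out, where a lone sample is assumed to vary like the other group. Receptor genes called, 2 as reported, were 1 with the higher filter (Ddr1; Pdgfrb was filtered out), 1 with plain probe sets (Pdgfrb; Ddr1 turned to −0.12), 3 with the replicate block (Igf1r added) and 0 to 1 with an array left out, always Ddr1 where 1. The ligand count was 1 (Col1a2) and the ligand handling count 2 (Furin added) with the replicate block; each was 0 to 1 with an array left out. The other receptor tyrosine kinase count was 2 with plain probe sets (Csf1r added) and 0 to 1 with an array left out. At the higher filter Irs1 and Spry2 were filtered out, which left 0 adaptor genes and 0 inhibitors called in limma, with 5 and 4 at an unadjusted p under 0.05. With the mean of all probe sets 0 inhibitors passed (5 unadjusted). With an array left out adaptor counts were 0 to 1 and inhibitor counts 0. Other settings kept every count within 1.5 times. The sample numbers are shared between groups, but no label says that they pair mice; same-numbered samples' deviations from their group means correlated at 0.13 across probe sets. The labels give no batch. Dim probe sets limit Pdgfra, Met and Mertk most, since their signals lie near the bottom of the scale.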
